A study of Mus musculus with 20 samples.

Results

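The mitochondrial genome of mouse podocytes is described here through the 37 genes it carries, out of 39179 rows of the expression table. The table names these rows without the mt- prefix, so the members were taken as the rows whose Ensembl ID has a GENCODE M21 symbol starting with mt-: 13 protein genes, 22 transfer RNA (tRNA) genes and 2 ribosomal RNA (rRNA) genes. Podocytes are the epithelial cells whose foot processes wrap the capillaries of the kidney glomerulus. The study captured 20 single podocytes from 1 wild-type male mouse, aged 8 weeks, whose strain is written C57BL/6 in the series design and C56BL/6 in the sample labels. Magnetic beads were used to isolate glomeruli, enzymes released the cells, and the cells were captured, lysed and turned into cDNA in separate wells of a Fluidigm C1 instrument. The cells form 1 group and carry the names GL_P_9 to GL_P_93. There is no second condition and no second animal, so values are given per cell, the spread is that between cells of 1 mouse, and no test was made.

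The genes of the mitochondrial genome are transcribed on both strands as long precursors. The precursors are cut into single RNAs largely at the tRNAs that lie between the other genes, so genes of 1 strand begin on a shared transcript and their later levels depend on processing and stability. The proteins are core subunits of the respiratory chain and the ATP synthase, which also need many subunits encoded in the nucleus. In humans, inherited changes in mitochondrial tRNA genes can cause glomerular disease with podocyte damage.

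The values are RPKM, which is the reads of a gene divided by its length and by the library's total. This scale is meant to set levels of genes of different length side by side. Library totals recovered from the values ran from 4205562 reads in GL_P_69 to 10448491 in GL_P_71, with a median of 6753753. With these totals and annotated lengths, 383 of 383 mitochondrial values above 0 came out as whole reads within 0.001 read. Over all genes with a single annotated transcript, 13410 of 18798 values above 0 did (71.3%). Read numbers of mitochondrial genes are therefore given beside RPKM where a level is low. A gene counted as found where its level reached 1 RPKM. Between 17 and 20 of 20 podocyte markers were found in each cell, with a summed level of 8473 to 30885 RPKM. Most markers of the labelled cell type were thus found in each cell. Of the 20 markers, 16 were found in every cell, and GL_P_54 had the fewest, with 17. At least 4 of 14 mesangial and mural or 9 of 16 endothelial markers were also found in 6 cells (GL_P_21, GL_P_23, GL_P_38, GL_P_45, GL_P_50 and GL_P_67), called cells with markers of other types below. The other 14 cells had at most 1 mesangial and 2 endothelial markers.

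Of the 37 mitochondrial genes, 13 were found in every cell, whereas 260 of all 39179 rows were, a background of 0.664%. The 13 were 12 of the 13 protein genes and mt-Ts1, a serine tRNA. At the other end, 7 of the 37 were found in no cell, against a background of 70%. These 7 were mt-Nd4l, a complex I subunit, and 6 tRNAs that had no read in any cell. Protein genes took 99.3% of the 5097878 mitochondrial reads, tRNAs 0.731% and rRNAs 0.0138%. With any value above 0, 14 of the 37 were present in every cell, mt-Rnr2 being the added one, against a background of 2.23%. By median level, 4 of the 10 highest genes of all rows were mitochondrial, and 9 of the 50 highest.

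Together the 37 genes held a median of 7.72% of the RPKM sum of a cell (mean 7.75% ± 1.71, SD, n = 20 cells). The lowest share was 4.61% in GL_P_62 and the next 5.71% in GL_P_93, while the highest were 10.99% in GL_P_70 and 12.1% in GL_P_71. The other 16 cells lay between these pairs. The share of reads does not divide by gene length, and it is taken of the recovered library total and not of the sum over rows. What the authors counted in that total is not given. This share ran from 1.98% in GL_P_62 (95% Wilson interval 1.97% to 1.98%) to 5.76% in GL_P_71 (5.75% to 5.77%), with a median of 3.32%. The intervals cover counting error alone and are far narrower than the distance between cells. GL_P_62 was lowest and GL_P_71 highest on both scales. Over the 20 cells, which share an animal, the RPKM share had a Spearman correlation of -0.03 with the library total, 0.22 with the number of genes found and -0.03 with the number of markers of other cell types found.

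**Figure D1:**
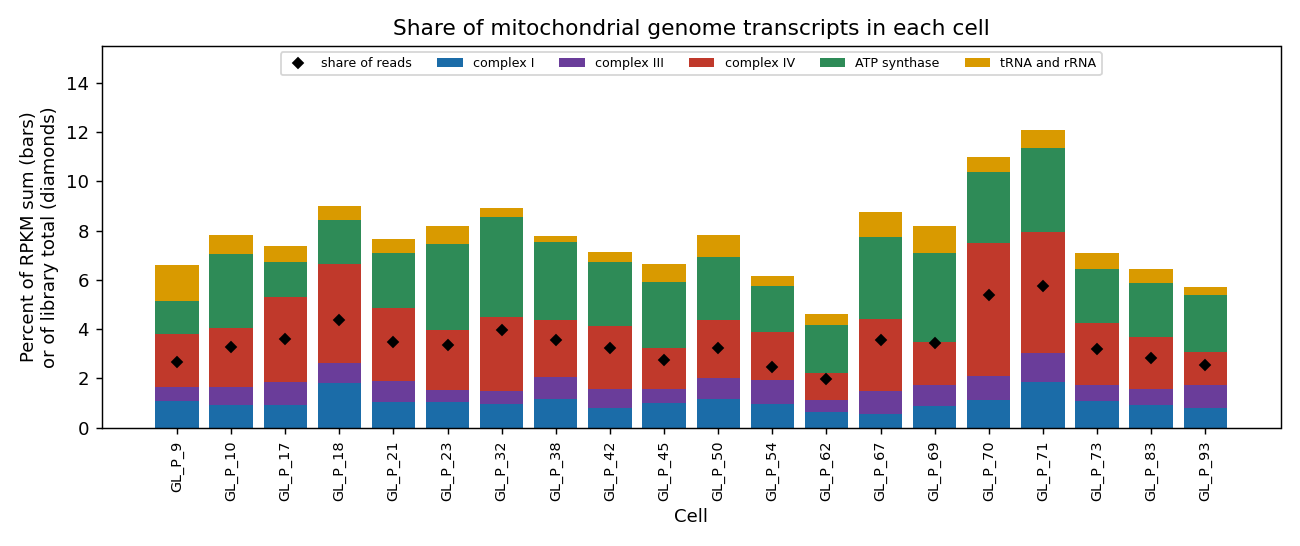
Stacked bars give the percent of each cell's RPKM sum held by mitochondrial genes, split into complexes I, III and IV, the ATP synthase, and tRNA with rRNA genes. Diamonds give the mitochondrial percent of the library total. GL_P_71 and GL_P_70 stand highest at 12.1% and 10.99%, and GL_P_62 lowest at 4.61%.

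The 6 cells with markers of other types had mitochondrial shares of 6.64% to 8.75%, inside the 4.61% to 12.1% of the other 14 cells. Mesangial and mural markers summed to 7.07 to 5843 RPKM in these 6 cells, with up to 11 of 14 markers found in a cell, and to 0.210 to 84.7 RPKM in the other 14. Endothelial markers summed to 45.3 to 3047 RPKM in the 6 cells, with up to 12 of 16 found, and to 0.180 to 329 RPKM in the other 14. The mural markers Tagln and Ren1 were at 0 in all 20 cells. In each of the 4 cells at the ends of the range of shares, at most 1 mesangial or endothelial marker was found. GL_P_62, with the lowest share, had 3 of 8 parietal epithelial markers, summed to 508 RPKM, and 1 of 14 proximal tubule markers, with a list sum of 436 RPKM. GL_P_71, with the highest share, had 1 parietal marker, with a list sum of 267 RPKM. Krt19, Cdh6 and Pax2 of the parietal list were at 0 in all 20 cells, and the part of these markers in the share was not tested.

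Both ATP synthase subunits encoded in mitochondria, mt-Atp6 and mt-Atp8, were high in every cell. Mt-Atp6, part of the proton channel of the enzyme, had the highest median of the 37 genes and the rank of 4 among all rows. Its level was 5778 RPKM in the lowest cell (GL_P_9), 10239 RPKM at the median and 17501 RPKM in the highest cell (GL_P_32). Mt-Atp8, a small subunit that supports the membrane part of the enzyme, had 2005 RPKM in GL_P_9, a median of 4321 RPKM and 6719 RPKM in GL_P_32. The same cells were thus lowest and highest for both genes. Their reading frames overlap by 43 bases, and both are known to be read from a single mRNA. The whole mt-Atp8 gene (chrM:7766-7969, plus strand, GRCm38) is shown because of this overlap, with the bases it shares with mt-Atp6 in capitals. The sequence is that of the GENCODE M21 transcript.
mt-Atp8: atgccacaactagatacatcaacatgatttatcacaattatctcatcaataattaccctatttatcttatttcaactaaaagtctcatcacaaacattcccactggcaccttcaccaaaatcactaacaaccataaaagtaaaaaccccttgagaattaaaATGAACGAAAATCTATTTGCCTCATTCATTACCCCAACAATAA

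The level of mt-Atp6 relative to mt-Atp8 was the steadiest of the 5 ratios computed. It ran from 2.003 in GL_P_93 over a median of 2.76 to 3.19 in GL_P_70, a range of 1.59-fold. Across the 20 cells the pair had a Spearman correlation of 0.91, the highest of the 66 pairs of protein genes found in every cell. The sources used here do not say how reads in the shared bases were assigned.

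Complex IV, cytochrome c oxidase, has its 3 core subunits in the mitochondrial genome, and they spanned a wider range of levels. Mt-Co3 had 3729 RPKM in GL_P_54, a median of 8524 RPKM and 21495 RPKM in GL_P_70, the highest single value of any mitochondrial gene. Mt-Co2, which receives electrons from cytochrome c, had 1343 RPKM in GL_P_62, a median of 3648 RPKM and 7124 RPKM in GL_P_18. Mt-Co1, the catalytic subunit that binds oxygen, had 540 RPKM in GL_P_54, a median of 2340 RPKM and 5259 RPKM in GL_P_70. GL_P_70 was thus highest and GL_P_54 lowest for both mt-Co3 and mt-Co1. The mt-Co3 level exceeded that of mt-Co1 in 20 of 20 cells, by a median ratio of 3.70, and their Spearman correlation over cells was 0.85. Mt-Cytb, the subunit of complex III that holds the ubiquinone sites, had 2804 RPKM in GL_P_62, a median of 4672 RPKM and 6946 RPKM in GL_P_71. Its coefficient of variation, the SD divided by the mean, was 0.235, the lowest of the 12 protein genes found in every cell.

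**Figure D2:**
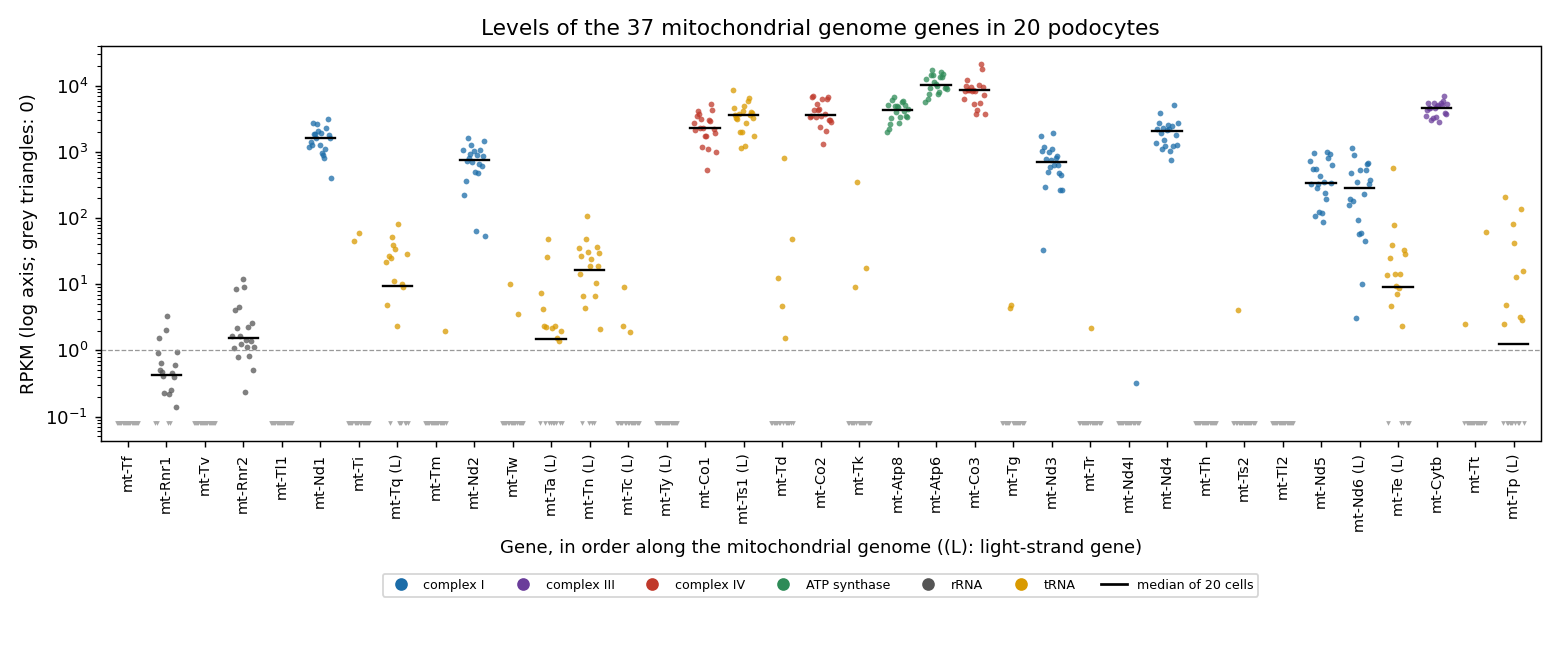
Each point is 1 cell, with the RPKM level on a log axis and the 37 genes in their order along the mitochondrial genome; horizontal bars mark medians of 20 cells, the dashed line 1 RPKM, and (L) a gene encoded on the light strand. Protein genes and mt-Ts1 form the upper band, with medians from 283 RPKM (mt-Nd6) to 10239 RPKM (mt-Atp6), while mt-Nd4l, the rRNAs and most tRNAs lie at or near 0.

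Complex I, the NADH dehydrogenase that feeds electrons into the chain, has 7 mitochondrial subunits, and 6 of them were found in every cell. These 6 had lower medians than the genes of the other complexes. Mt-Nd4, a proton-pumping subunit, had 762 RPKM in GL_P_67, a median of 2049 RPKM and 5207 RPKM in GL_P_71. Mt-Nd1, which lies next to the ubiquinone site, had 403 RPKM in GL_P_93, a median of 1631 RPKM and 3105 RPKM in GL_P_71. GL_P_71, the cell with the highest mitochondrial share, was highest for both. Mt-Nd2, also a pumping subunit, had 54.3 RPKM in GL_P_93, a median of 760 RPKM and 1613 RPKM in GL_P_21. Mt-Nd3, a small membrane subunit, had 33.1 RPKM in GL_P_17, a median of 706 RPKM and 1911 RPKM in GL_P_54. Low values came from few cells: the lowest mt-Nd3 value rests on 79 reads and the next lowest cell had 265 RPKM, while mt-Nd2 had 63.3 RPKM in its second lowest cell.

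Mt-Nd5, another pumping subunit, had 86.0 RPKM in GL_P_54, a median of 345 RPKM and 1009 RPKM in GL_P_70. Mt-Nd6, a membrane subunit and the 1 protein gene of the light strand, had 3.13 RPKM in GL_P_32, a median of 283 RPKM and 1147 RPKM in GL_P_18. It was the most variable of the 12, with a coefficient of variation of 0.900 and a 366-fold distance between the highest and the lowest cell. The 2 lowest cells rest on 11 reads in GL_P_32 and 49 reads in GL_P_62, whereas the highest count was 3698 reads.

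Set against the other complexes, the complex I genes had medians of 283 to 2049 RPKM. The 6 genes of complexes III, IV and V had medians of 2340 to 10239 RPKM, so the medians did not overlap. The gap between them was narrow. Mt-Co1, the lowest of these 6, exceeded mt-Nd4, the highest of complex I, in 13 of 20 cells. The mean log2 difference of 0.26 was within its SD over cells of 0.99. Of the 36 pairs of 1 complex I gene and 1 other gene, the complex I gene was lower in every cell for 29 pairs, and in at least 18 of 20 cells for 33. In 10 of 20 cells all 6 of the other genes lay above all 6 complex I genes. Without the 6 cells with markers of other types, the complex I gene was lower in every cell for 30 pairs. As a part of the summed level of mitochondrial protein genes, complex I held a median of 15.1% (range 7.39% to 21.6%) with 7 genes and complex III 11.4% (6.43% to 17.5%) with 1 gene. Complex IV held 35.6% (24.4% to 52.1%) with 3 genes, and the ATP synthase 37.9% (20.9% to 51.1%) with 2 genes.

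Neighbours in the order of levels mostly differed by less than the spread of their difference between cells. Among the 13 genes found in every cell, ordered by median, 2 of the 12 steps were larger than 1 SD of the log2 difference within cells. Mt-Co3 exceeded mt-Cytb in 18 of 20 cells, by 0.86 ± 0.61 (mean log2 difference, SD, n = 20 cells). Mt-Nd1 exceeded mt-Nd2 in 19 of 20 cells, by 1.33 ± 1.06. The other 10 steps, among them that between mt-Atp6 and mt-Co3 (higher in 14 of 20 cells) and that between mt-Nd2 and mt-Nd3 (12 of 20 cells), lay within that spread.

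Mt-Nd4l stood apart from the other 12 protein genes. It had 0 reads in 19 cells and 1 read, or 0.322 RPKM, in GL_P_71, while mt-Nd4, the gene whose reading frame overlaps its last 7 bases, had at least 6444 reads in every cell. A count of 0 allows up to 3 reads, which for mt-Nd4l is 0.967 to 2.40 RPKM depending on the library. Its gene (chrM:9877-10173, plus strand) is shown as the 1 protein gene found in no cell, with the bases shared with mt-Nd4 in capitals.
mt-Nd4l: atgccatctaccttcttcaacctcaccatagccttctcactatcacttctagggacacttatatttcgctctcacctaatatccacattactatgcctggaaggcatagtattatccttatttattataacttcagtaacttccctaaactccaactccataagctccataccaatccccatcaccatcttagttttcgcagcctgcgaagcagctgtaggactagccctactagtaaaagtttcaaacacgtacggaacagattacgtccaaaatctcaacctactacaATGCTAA

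Several of these genes have copies in the nuclear genome, pieces of mitochondrial DNA inserted into chromosomes. Aligning the mitochondrial transcripts to the nuclear transcripts of GENCODE M21 found 16 nuclear genes on 6 chromosomes that matched 11 of the mitochondrial genes over at least 150 bases at 90% identity or more. The closest were 7 pseudogenes that lie side by side on the minus strand of chromosome 1 (chr1:24611535-24616197, GRCm38), of which 5 matched at 100%: Gm28661 (mt-Co2), Gm10925 (mt-Atp6), Gm28437 (mt-Co3), Gm10222 (mt-Nd4l) and Gm28439 (876 bases of mt-Nd4). The other two were Gm29216, with 99.8% over 483 bases of mt-Co1, and Gm28438, with 99.7% over 345 bases of mt-Nd3. The single difference of Gm28438 is T3C, counted from the first base of mt-Nd3, whose base is given first. The first bases of both genes (chrM:9459-9476, plus strand, and chr1:24613102-24613119, minus strand) are shown with the differing base in capitals.
mt-Nd3: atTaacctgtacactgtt
Gm28438: atCaacctgtacactgtt

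Of all stretches of 100 bases, 99.5% in mt-Co2, 99.5% in mt-Atp6, 99.9% in mt-Co3, 97.6% in mt-Nd3, 98.5% in mt-Nd4l, 60.8% in mt-Nd4 and 30.8% in mt-Co1 occur unchanged in an annotated nuclear transcript. For these 7 genes a read cannot be placed by sequence over those stretches, and the sources used here do not say how reads with several places were treated. Their levels are therefore uncertain, and the share was 3.19% for mt-Nd2 and 0% for mt-Nd1, mt-Atp8, mt-Nd5, mt-Nd6 and mt-Cytb. A share of 0% means no match in an annotated transcript, since unannotated bases were not searched. Such bases lie on chromosome 1 between Gm10925 and Gm28661, the copies of mt-Atp6 and mt-Co2. These 2 genes lie on either side of mt-Atp8, so an unannotated copy of mt-Atp8 is possible and was not tested. Among the genes without annotated stretches of this kind over 30% of their length, mt-Atp8 and mt-Cytb lay above mt-Nd1, mt-Nd2, mt-Nd5 and mt-Nd6 in every cell for 7 of 8 pairs.

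Of the 7 pseudogenes on chromosome 1, Gm10222 was the 1 that is itself a row analysed here. The identical copy of mt-Nd4l (294 bases) thus has values of its own here, whereas the copies of the other 6 genes, all found in every cell, have none. Gm10222 was also near 0, with 0 RPKM in 19 cells and 0.329 RPKM in GL_P_38. Whether the row of Gm10222 bears on the level of mt-Nd4l was not tested. Copies with more differences had low values of their own: Gm13341 on chromosome 2, at 95.9% identity to mt-Co2, had a median of 1.60 RPKM and a highest value of 4.31 RPKM. Gm13340, at 97.6% identity to mt-Co1, had a median of 0.896 RPKM and a highest value of 5.85 RPKM.

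Both rRNAs, the RNA core of the mitochondrial ribosome, were near the limit of detection. Mt-Rnr2, the large-subunit rRNA, had 3 to 114 reads, with 0.234 RPKM in GL_P_54, a median of 1.54 RPKM and 11.9 RPKM in GL_P_45. Mt-Rnr1, the small-subunit rRNA, had 0 to 21 reads, with a median of 0.431 RPKM and 3.30 RPKM in GL_P_50, and no read in 4 cells. Every protein gene except mt-Nd4l had a higher median, and the lowest of those medians, that of mt-Nd6, was 184-fold that of mt-Rnr2. The sources used here do not say how the cDNA was primed. These values are thus levels in the libraries and not amounts of rRNA in the cells, and the part of priming was not tested. The rRNA reads were most numerous in GL_P_45, with 126, and in GL_P_50, with 118, which both carry mesangial markers. Next was GL_P_18, with 91, where 0 mesangial and mural markers and 1 endothelial marker were found. The rRNA reads numbered 11 to 126 in the 6 cells with markers of other types and 3 to 91 in the other 14. The part of those markers in the rRNA level was not tested.

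Among the 22 tRNAs, genes of 59 to 75 bases that carry amino acids to the mitochondrial ribosome, mt-Ts1 took 94.7% of 37279 reads. Mt-Ts1, the tRNA for UCN serine codons, had 1144 RPKM in GL_P_38, a median of 3596 RPKM and 8624 RPKM in GL_P_9, with at least 680 reads in every cell. Its RPKM level was like that of the protein genes and not like that of the other 21 tRNAs, none of which was found in every cell. Mt-Ts1 lies on the light strand opposite the end of mt-Co1, with which it shares 3 bases. In human cells the mt-Co1 mRNA is known to run on through the complement of this tRNA. The gene (chrM:6870-6938, minus strand) is shown as the 1 tRNA gene found in every cell, with the bases complementary to the end of mt-Co1 in capitals.
mt-Ts1: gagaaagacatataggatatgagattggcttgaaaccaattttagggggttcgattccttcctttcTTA

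The RPKM level of mt-Ts1 relative to mt-Co1 varied from 0.651 in GL_P_32 over a median of 1.70 to 3.13 in GL_P_9, and exceeded 1 in 13 of 20 cells. The ratio rests on the division by length, since the median reads were 1720 for mt-Ts1 (69 bases) and 23030 for mt-Co1 (1545 bases). Their Spearman correlation over cells was 0.32, against 0.91 for the overlapping mt-Atp8 and mt-Atp6. The sources used here do not state the counting strand, so reads of mt-Ts1 and of an RNA from the opposite strand cannot be told apart. The same holds for mt-Nd6 and mt-Nd5, which meet tail to tail and share 14 bases. The last 60 bases of mt-Nd6 (chrM:13552-13611, minus strand) are shown with the bases complementary to the end of mt-Nd5 in capitals.
mt-Nd6: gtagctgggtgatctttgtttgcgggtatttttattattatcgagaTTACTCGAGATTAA

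The ratio of mt-Nd6 to mt-Nd5 was the least steady of the 5, from 0.0108 in GL_P_32 over a median of 0.759 to 4.53 in GL_P_50. It exceeded 1 in 5 cells, and the pair had a Spearman correlation of 0.59.

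**Figure D3:**
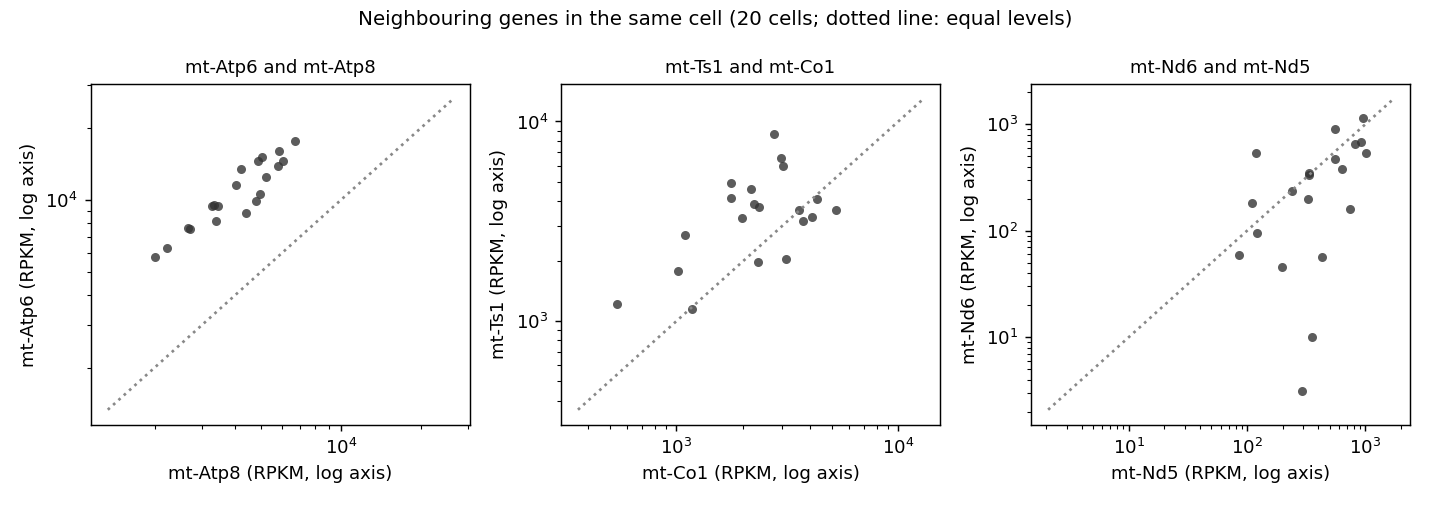
Each point is 1 of 20 cells, with the RPKM levels of 2 neighbouring or overlapping genes on log axes and a dotted line where both are equal. Mt-Atp6 and mt-Atp8 lie along a band with ratios of 2.003 to 3.19, mt-Ts1 and mt-Co1 scatter around the line, and mt-Nd6 falls far below mt-Nd5 in GL_P_32 and GL_P_62.

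The remaining tRNAs had 1976 reads in all, and detection differed by strand. A read was present in at least 10 cells for 5 of the 7 other light-strand tRNA genes and for 0 of the 14 heavy-strand ones. The median number of cells with a read was 11 for these light-strand genes and 1 for the heavy-strand genes. For the light strand, the asparagine tRNA mt-Tn had a read in 16 cells, the glutamate tRNA mt-Te in 14, the glutamine tRNA mt-Tq in 13, the alanine tRNA mt-Ta in 11 and the proline tRNA mt-Tp in 10. The cysteine tRNA mt-Tc had a read in 3 cells and the tyrosine tRNA mt-Ty in none. For the heavy strand, the aspartate tRNA mt-Td led with 5 cells, followed by the lysine tRNA mt-Tk with 3. With at least 3 reads required, 3 of these light-strand and 0 heavy-strand genes reached 10 cells. Light-strand tRNAs lie opposite the heavy-strand transcript, from which most protein genes come, and with the counting strand not given the source of their reads cannot be told apart.

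**Figure D4:**
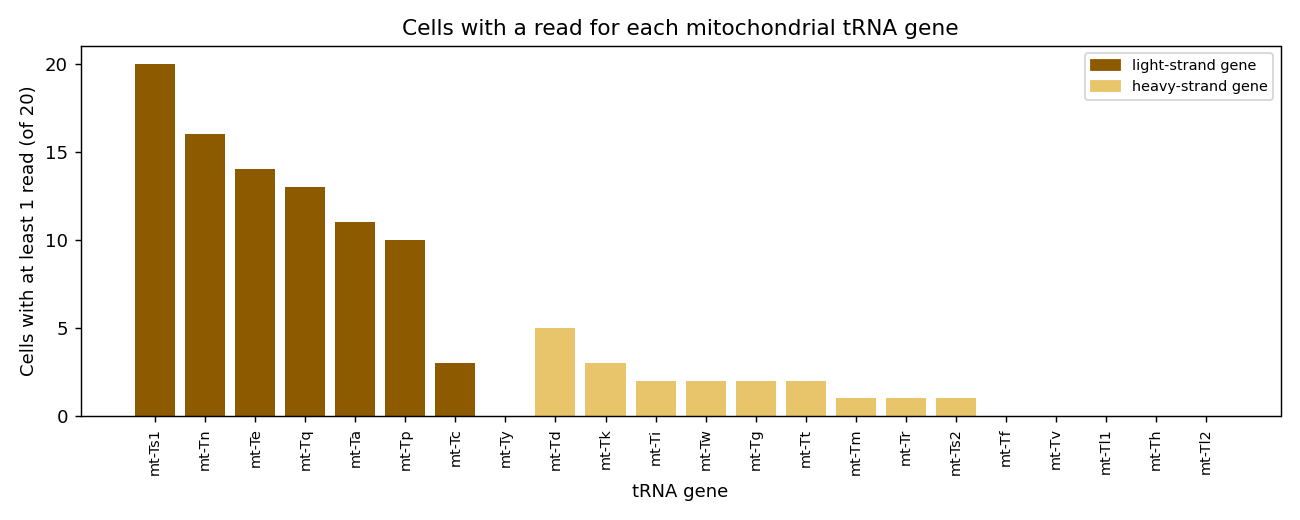
Bars give the number of 20 cells with at least 1 read for each of the 22 tRNA genes, with the 8 light-strand genes in dark and the 14 heavy-strand genes in pale colour. Light-strand genes reach 20 cells (mt-Ts1) and 16 cells (mt-Tn), and the highest heavy-strand gene, mt-Td, reaches 5.

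Read numbers of these tRNAs were small and often came from 1 cell. Mt-Td had 456 of its 490 reads in GL_P_54, where the next cell had 25. Mt-Tk had 213 of 229 reads in GL_P_42, and mt-Te had 258 of 412 in GL_P_23, a cell with mesangial markers. These sums thus describe single cells and not the 20 together. The 6 tRNAs with no read in any cell were those for phenylalanine (mt-Tf), valine (mt-Tv), tyrosine (mt-Ty), histidine (mt-Th) and both leucine tRNAs (mt-Tl1 and mt-Tl2). Since 1 read of a tRNA is worth 1.28 to 4.03 RPKM, a count of 0 allows a level of 3.83 to 12.1 RPKM in the library, and lower levels were not detectable at this depth. How well RNAs this short were turned into cDNA is not given, so these values do not bound the tRNA level in the cells. The most often detected tRNAs after mt-Ts1, mt-Tn (chrM:5089-5159, minus strand) and mt-Te (chrM:14071-14139, minus strand), are shown beside the leading heavy-strand one, mt-Td (chrM:6942-7011, plus strand), to show the genes behind this contrast.
mt-Tn: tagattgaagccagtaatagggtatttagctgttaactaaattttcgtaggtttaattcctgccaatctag
mt-Te: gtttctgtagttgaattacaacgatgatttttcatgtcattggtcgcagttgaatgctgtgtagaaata
mt-Td: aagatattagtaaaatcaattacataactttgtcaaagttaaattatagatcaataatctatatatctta

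From cell to cell, the 12 protein genes found in every cell varied less than most genes of like level. Their coefficients of variation ran from 0.235 to 0.900 with a median of 0.483, and all 12 were below the median of the 200 other genes nearest in mean, which was 0.825 to 1.03. For mt-Cytb 0 of the 200 neighbours varied less, for mt-Atp6 and mt-Atp8 3 each, for mt-Co2 and mt-Nd1 13 each, and for mt-Nd6 65. The neighbours of the highest genes reach down to means near 340 RPKM, since few genes are as high. The 12 were kept because they were found in every cell, which leaves out genes missing from some cells, and the neighbours were not chosen that way.

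The 12 genes did not move as 1 block. Over their 66 pairs the Spearman correlation across cells ranged from -0.44 to 0.91 with a median of 0.10. Of these pairs, 10 reached 0.5 and 22 lay below 0. Among the 247 other genes found in every cell, 572 of 30381 pairs reached 0.5 and 14784 lay below 0. The cells share an animal and each RPKM value shares its library's total, so these are descriptions of 20 cells. Without the 6 cells with markers of other types the median of the 66 mitochondrial pairs was 0.20. Of the 10 pairs, 5 were among mt-Nd1, mt-Co1, mt-Co2 and mt-Co3, led by mt-Co1 with mt-Co3 at 0.85 and mt-Co2 with mt-Co3 at 0.69. Mt-Nd6 was in 3, with mt-Nd5 at 0.59, mt-Co3 at 0.56 and mt-Nd1 at 0.55. Mt-Atp8 and mt-Atp6 were tied to each other and to few others, since mt-Co3, whose gene abuts mt-Atp6, had 0.31 with it. Mt-Nd3 had no positive value above 0.03, and the lowest pair was mt-Nd2 with mt-Nd4 at -0.44. The 11 pairs next to each other on the genome had a median of 0.31, with 3 at 0.5 or more and 3 below 0. Mt-Co1, mt-Co2 and mt-Co3 are among the genes with near-identical nuclear copies.

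**Figure D5:**
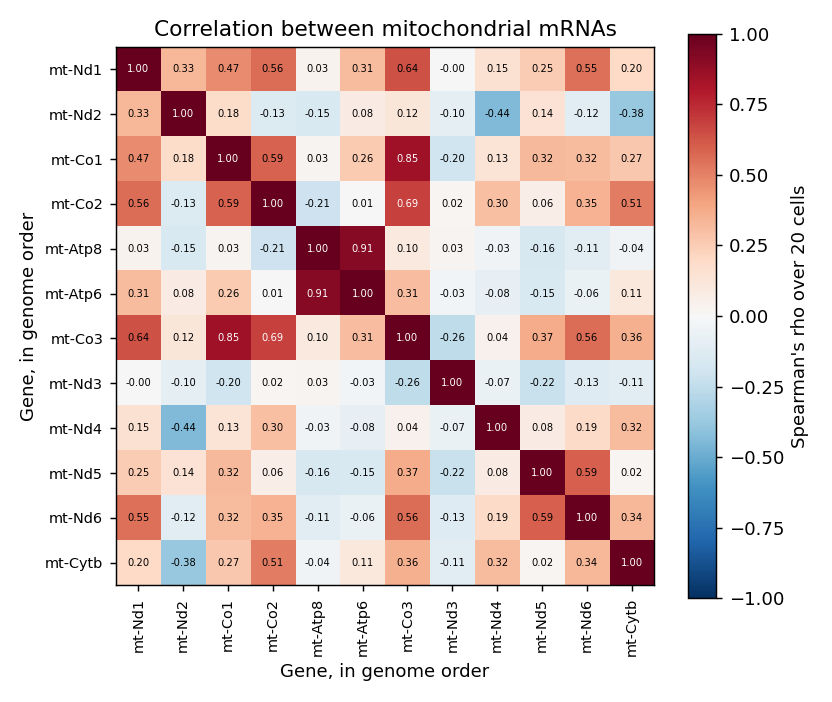
Colours and numbers give Spearman's rho over 20 cells for each pair of the 12 mitochondrial protein genes found in every cell, in genome order on both axes, with red for positive and blue for negative values. The pair of mt-Atp8 and mt-Atp6 (0.91) and the group of mt-Co1, mt-Co2 and mt-Co3 (0.59 to 0.85) stand out, and mt-Nd3 stays near or below 0 with all others.

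The nuclear partners of these proteins were lower and less even. The median of medians was 2049 RPKM for the 13 mitochondrial protein genes, mt-Nd4l included, and 92.0 RPKM for 71 nuclear genes of the respiratory chain and ATP synthase. Of these 71, 12 were found in every cell, against a background of 0.664%, and 0 in no cell, against a background of 70%. The highest nuclear median was 895 RPKM, for the complex IV subunit Cox6a1, followed by the ATP synthase beta subunit Atp5b with 509 RPKM and the complex IV subunit Cox4i1 with 376 RPKM. Of the 13 mitochondrial genes, 8 lay above all 71 nuclear ones in median. The 12 nuclear genes found in every cell had a median Spearman correlation of 0.034 with each other over 66 pairs, and 0.087 with the 12 mitochondrial genes over 144 pairs. All other genes found in every cell, 247 in number, had a median of 0.0075 over 30381 pairs.

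The next set held nuclear genes for replication and transcription of mitochondrial DNA, for processing, stability and translation of its RNA, and nuclear regulators. Genes of this set were found in a median of 3 cells. The median was 4 cells over all 11749 rows found in at least 1 cell, which leaves out rows found in no cell. Of 44 such nuclear genes 0 were found in every cell, against a background of 0.664%, and 5 in no cell, against a background of 70%. The 5 were the terminator family member Mterf4, the tRNA-end nuclease Elac2, the RNase P subunit Trmt10c, the RNA-binding protein Fastkd5 and the coactivator Ppargc1a. Polrmt, the mitochondrial RNA polymerase, was found in 1 cell at 43.2 RPKM, and Tfam, which packages mitochondrial DNA and starts its transcription, in 7 cells. Mtpap, the polymerase that adds tails to mitochondrial mRNAs, and Lrpprc, which keeps them stable, were found in 3 cells each. The most often found were the translation factor Gfm2 in 16 cells, the single-strand DNA-binding protein Ssbp1 in 14 with a median of 21.9 RPKM, the transcription factor Nrf1 in 14, the topoisomerase Top1mt in 13 with a median of 67.7 RPKM and Slirp, the partner of Lrpprc, in 13.

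The summed level of the mitochondrial protein genes was compared with that of each of the 247 other genes found in every cell. Highest in Spearman correlation over the 20 cells were the adaptor protein gene Nck2 at 0.70, the ribosomal protein genes Rplp1 at 0.66 and Rps29 at 0.58, the secreted protein gene Igfbp7 at 0.52 and Pan3, of the complex that shortens mRNA tails, at 0.49. These are the top of a ranking of 247 genes over 20 cells of 1 mouse, which share their library totals.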

How the data were processed

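The authors deposited RPKM values of 39179 Ensembl genes for 20 single cells. The submitters' processing notes name HTSeq 0.6.1, TopHat2 2.0.12 and the build GRCm38. The sources used here give neither their settings, nor the counting strand, nor the treatment of reads with several places. A single blank cell of the table (1 value) was read as 0. No symbol in the table starts with mt-, so GENCODE M21 gave symbols and coordinates by Ensembl ID (37607 IDs matched). Library totals were recovered from genes with 1 transcript, as the commonest total that their RPKM and length would give for 1 read. This step was tested on simulated data in which a minority of genes had a wrong length. In the real data, 71.3% of the values above 0 of genes with 1 transcript came out as whole reads. What the authors counted in that total is not given. Copies were searched with blastn 2.17.0 in annotated transcripts, not in whole chromosomes. No test was run, since 1 mouse and 1 group give none. Cells were counted as marked by other types with at least 4 of 14 mesangial or 9 of 16 endothelial markers. Named were all 37 members, their nuclear copies, genes of 2 pathway lists by counts with examples, and the 5 genes most alike in pattern. The members and lists were chosen with earlier results of these data known. Calculations used Python 3.11.15, pandas 2.3.3 and scipy 1.17.1.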

Additional observations from a re-analysis of the deposited data

How the results depend on the processing

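The median mitochondrial share of 7.72% of the RPKM sum was 3.32% as a share of the recovered library total, which is another denominator. It was 2.67% without genes that have a near-identical annotated nuclear copy, a set smaller by 7 genes. The median coefficient of variation of 0.483 became 0.69 as an SD of log2(RPKM + 1), which is another measure of spread. The other 23 alternatives for the summaries, and all 74 for the levels of single genes, kept their value within 1 SD over cells or genes, or within 1.5 times a count. Among them, reads per kilobase of annotated length was used for the level of each gene and for their median. It returns RPKM by construction, so it could not differ and shows nothing about stability. Those without the 6 cells with markers of other types, without copied genes in the complex I comparison and with at least 3 reads for a tRNA were chosen after seeing the data. The median pairwise correlation of 0.10 was 0.20 without those 6 cells, a smaller move than its SD over pairs. Levels of rRNAs and of all tRNAs except mt-Ts1 rest on few reads. Where the median of such a gene was above 0, its SD over cells exceeded that median. The rule of 1 SD could thus hardly fail for these genes and shows little about their stability. Without those 6 cells the median went from 1.48 to 0.694 RPKM for mt-Ta (SD 11.7) and from 1.27 to 2.72 RPKM for mt-Tp (SD 55.2). No paired analysis was possible because the cells form 1 group.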
